A study of Mus musculus with 14 samples.

Results

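The 42 genes described here encode the kinases, condensins, centromere and kinetochore proteins and spindle motors of mitosis, followed in a mouse pre-B cell line from which IL-7 was withdrawn, with Ikaros activity induced or not. They were chosen by name, with earlier results of these data known, so their counts beside the share of all genes are a description. Each is represented by the brightest probe set that carries its symbol and no other. All 42 had such a probe set, among 19938 genes measured that way, and only Top2a had 2 to choose from. Values are log2 expression values from the authors' RMA processing, and 41 of the 42 genes lay above 7.33, the median of all values, on all 14 arrays. The exception was Cenpi, which fell below it on the arrays where it was lowest.

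The cells, BH1-Bcl2-Ik1ER, come from the Ikaros-deficient pre-B line BH1. All groups carry the same retroviral genes, Bcl2 and a fusion of Ikaros with the estrogen receptor (Ik1ER), and were sorted for both. The fusion is switched on by 100 nM 4-hydroxytamoxifen (4OHT), and Ikaros is a DNA-binding regulator of lymphocyte development. IL-7, a growth factor for early B cells, was supplied as 8% conditioned medium of a J558L line that secretes it, and withdrawal meant culture without that medium, so everything else in it was withdrawn too. The 7 groups were cells at time 0; cells at 6 h with 4OHT, with or without IL-7; and cells at 24 h in the 4 combinations of 4OHT and IL-7. Each group has 2 arrays, 1 from each of 2 independent experiments. All cells are 1 line, none lacks the fusion, and no group at 6 h lacks 4OHT, so effects of 4OHT as a compound cannot be told apart from those of Ikaros, and 6 h of culture cannot be told apart from 6 h of 4OHT.

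Mitosis starts when cyclin-dependent kinase 1 (CDK1), bound to cyclins A and B, phosphorylates many proteins together with Aurora and Polo-like kinases. Condensins and topoisomerase II compact the chromosomes, the kinetochore assembled on CENP-A chromatin holds the microtubules, and the spindle checkpoint blocks separase until all chromosomes are attached. Transcripts of these genes accumulate in G2 and M phase of cycling cells and are low in cells that have left the cycle, and large pre-B cells cycle under IL-7. In bulk RNA, fewer dividing cells and less of these transcripts per cell cannot be told apart.

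Of the pre-B markers measured, 10 of 14 had mean values above the median of all values (Igll1, Vpreb1, Cd79a, Pax5 and Il7r among them), and Rag1, Rag2, Il2ra and Cd2 did not. No T cell marker of 8 and no natural killer marker of 6 did, and 1 of 10 myeloid markers (Itgam, 7.83) did. Of the other lists, 3 of 6 plasma cell markers (Irf4, Sdc1 and Xbp1), 3 of 7 stromal markers (Col1a1, Col1a2 and Col3a1) and 1 of 6 erythroid and megakaryocyte markers (Klf1) did. Itgam averaged 8.25 with and 8.18 without 4OHT at 24 h without IL-7, against 7.41 and 7.58 with IL-7. The summed myeloid list ran from 9.78 to 9.94 there and from 9.57 to 9.80 with IL-7 at 24 h. The summed natural killer list was highest at 24 h without IL-7 and with 4OHT (log2 of the sum 8.67 to 8.97, against 8.24 to 8.54 in the other groups), where Klrb1c averaged 7.24 and the defining Ncr1 5.04. The part of these markers in the results was not tested. Array medians lay between 7.23 and 7.43. Precision is set by having 2 arrays a group: among the 42 genes a difference between groups had a standard error (SE) whose median was 0.16.

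The genes also shifted together between the experiments. For each gene the value in experiment 1 was taken from that in experiment 2. In every group the median of these differences over the 42 genes was negative. It ran from -0.01 (24 h with IL-7 and 4OHT) to -0.38 (6 h without IL-7). Over all genes that median ran from -0.041 to 0.022. Differences were therefore fitted without the experiment and, beside it, with the experiment as a replicate block, which removes a shift shared by all arrays of an experiment. A gene was called at a limma adjusted p under 0.05 over all 19938 genes.

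Promoters of genes that peak in G2 and M often hold a CHR element (cell cycle genes homology region), which complexes of LIN54 with B-MYB or with p130 and E2F4 bind, and CCAAT boxes, which NF-Y binds. RefSeq promoter windows on GRCm38.p6, reaching from 250 bases before the transcription start to 50 bases after it, were in the table for 35 of the 42 genes (39 windows). Ccna2, Pbk, Aurkb, Smc4, Kif20a, Tpx2 and Incenp had none. The letters TTTGAA, a core form of the CHR, stood on either strand in 28 of the 39 windows (71.8%), against 5878 of all 32851 windows (17.9%). CCAAT stood on either strand in 31 of the 39 (79.5%), against 37.4% of all windows. Both were present in 24 of the 39 windows (61.5%), against 7.0% of all, and nowhere in the 39 windows did they overlap. In 23 genes a CHR lay within 50 bases of the start.

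The promoters of 5 genes are printed from 100 bases before the start to 30 bases from it. The CHR and the CCAAT box are in capitals on either strand. Printed are the genes of the CDK1 and cyclin B2 pair, and 3 genes with the largest falls of their group. These are the checkpoint, condensin and centromere genes that fell most at 24 h with both treatments, 4OHT and IL-7 withdrawal, against neither. They lie at chr9:70421525-70421654, minus strand (Ccnb2), chr10:69352883-69353012, minus strand (Cdk1), chr9:83834589-83834718, plus strand (Ttk), chr12:116405336-116405465, plus strand (Ncapg2) and chrX:134307984-134308113, plus strand (Cenpi).
Ccnb2: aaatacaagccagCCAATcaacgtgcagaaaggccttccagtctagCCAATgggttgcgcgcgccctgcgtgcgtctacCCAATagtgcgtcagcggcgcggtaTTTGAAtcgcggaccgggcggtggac
Cdk1: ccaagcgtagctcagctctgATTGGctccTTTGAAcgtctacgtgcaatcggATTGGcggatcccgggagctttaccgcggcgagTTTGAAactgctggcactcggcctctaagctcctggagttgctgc
Ttk: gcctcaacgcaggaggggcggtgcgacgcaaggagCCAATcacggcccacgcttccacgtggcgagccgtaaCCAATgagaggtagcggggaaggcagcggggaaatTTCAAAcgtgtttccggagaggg
Ncapg2: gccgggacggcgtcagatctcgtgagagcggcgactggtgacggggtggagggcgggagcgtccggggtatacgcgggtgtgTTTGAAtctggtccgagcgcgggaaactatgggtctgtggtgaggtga
Cenpi: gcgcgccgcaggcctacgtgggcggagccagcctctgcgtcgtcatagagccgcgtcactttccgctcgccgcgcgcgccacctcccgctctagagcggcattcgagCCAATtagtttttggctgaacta
With the start base counted as 0, Ccnb2 had a CHR whose first base was at 4 and CCAAT boxes 87, 54 and 21 bases before the start. A further CHR of Ccnb2 lay 167 bases before the start, outside the printed stretch. Cdk1 had CHR elements 71 and 15 bases before the start, and CCAAT boxes 80 and 48 bases before it, both on the opposite strand. Its window also held a CCAAT box 208 bases before the start, outside the printed stretch. Ttk had a CHR at 7, Ncapg2 had one 18 bases before the start and no CCAAT box, and Cenpi had a CCAAT box at 7 and no CHR in its window. The letters are a description of the windows and were not tested as sites.

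After 24 h without IL-7 all 42 genes were lower than in cells kept with IL-7 for the same time, whether 4OHT was present or not. Without 4OHT, 42 of 42 fell, against a background of 8.78% of all genes called lower. Their median log2 difference was -1.79 (all genes -0.01), from -2.38 for Ncapg, a condensin I subunit, to -0.28 for Smc4, the condensin core ATPase. With 4OHT, 42 of 42 fell again, against 11.5% of all genes, with a median of -1.76 (all genes 0.06) and a range from -2.55 (Cenpi, a protein of the inner kinetochore) to -0.29 (Smc4). Falls of at least 2-fold were found in 41 genes without and 40 with 4OHT, and falls of at least 4-fold in 11 and 9. In both comparisons all 42 genes were lower in each experiment. Without 4OHT the largest falls by role were -2.32 ± 0.29 for Pbk (limma adjusted p = 0.000175), -2.32 ± 0.22 for Ttk (3.33e-05), -1.97 ± 0.17 for Birc5 (1.85e-05), -2.38 ± 0.20 for Ncapg (1.59e-05), -2.30 ± 0.23 for Cenpi (4.20e-05) and -2.26 ± 0.21 for Kif2c (2.51e-05), where ± is the SE. Under 4OHT they were -2.45 ± 0.29 for Pbk (7.47e-05), -2.26 ± 0.22 for Ttk (1.93e-05), -1.93 ± 0.17 for Birc5 (8.02e-06), -2.47 ± 0.14 for Ncapg2 (4.03e-07), -2.55 ± 0.23 for Cenpi (9.79e-06) and -2.24 ± 0.23 for Kif4 (2.63e-05). The medians were -1.76 and -1.87 in experiments 1 and 2 without 4OHT, and -1.58 and -1.92 with it.

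The heat map of the arrays shows where the change lay. In all 42 genes the 4 arrays of 24 h without IL-7 lay below the other 10 arrays, a pattern found in 586 of all 19938 genes (2.94%). The gap between the highest of those 4 arrays and the lowest of the other 10 was 1.31 for Ncapg and 1.18 for Birc5, and only 0.07 for Smc4, 0.25 for Ndc80, 0.27 for Cenpa and 0.33 for Cenpn.

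**Figure D1:**
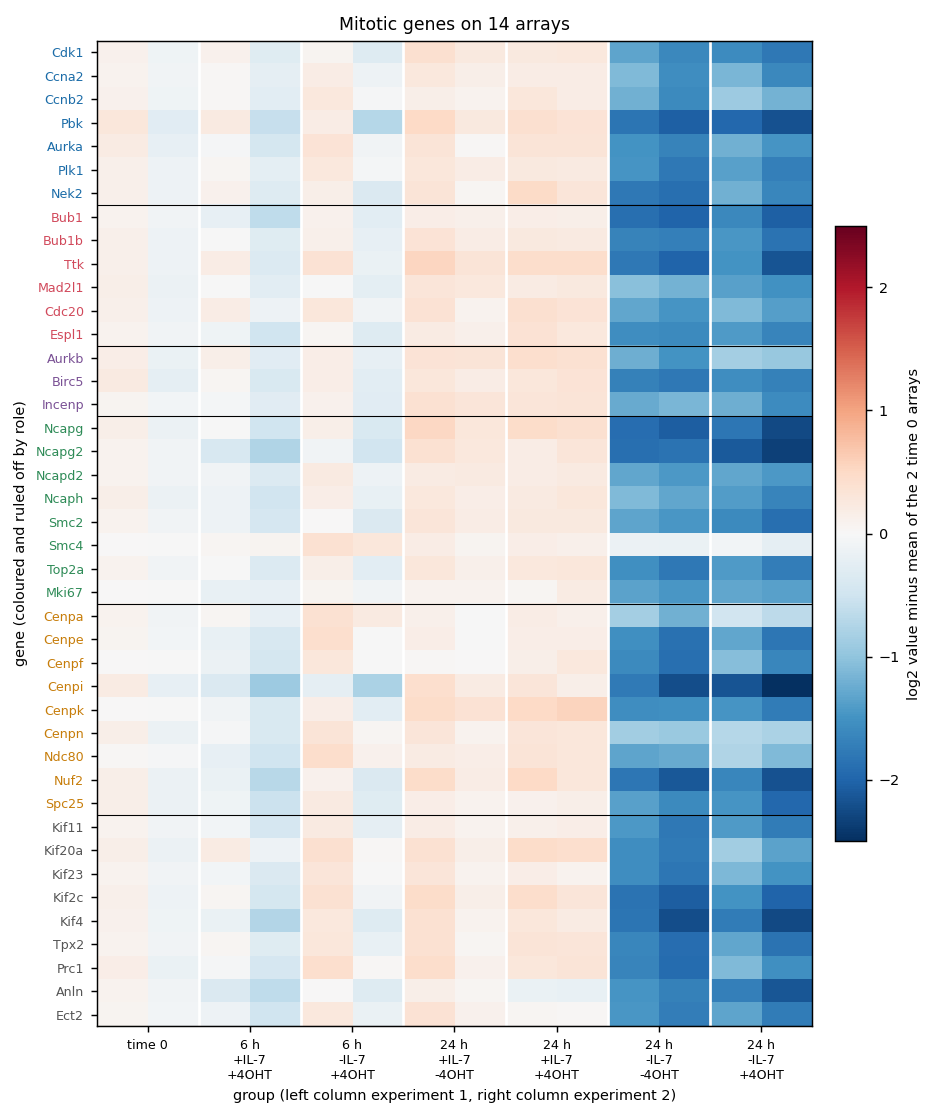
Log2 value of each of the 42 genes (vertical axis, by role) on each of the 14 arrays (horizontal axis, 2 per group) minus the mean of the 2 time 0 arrays, in colour. The 4 columns at the right, 24 h without IL-7, are the low ones in every gene, and Smc4 is the palest of them.

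Both treatments together, set against neither at 24 h, gave 42 of 42 genes lower, against 15.4% of all genes, with a median log2 difference of -1.74 and a range from -2.64 (Cenpi) to -0.27 (Smc4). This comparison, which fixed the genes followed array by array, shares its control arrays with the withdrawal without 4OHT and its treated arrays with the withdrawal under 4OHT. The smallest fall was also the least firm. Smc4 differed by -0.28 ± 0.07 (SE; limma adjusted p = 0.0154, 0.00437 to 0.106 over the alternatives) without 4OHT and by -0.29 ± 0.07 (limma adjusted p = 0.0108, 0.00304 to 0.107 over the alternatives) with it. Without 4OHT its call ended when the experiment 1 array with IL-7 (leaving -0.23) or either array without IL-7 (-0.30 and -0.27) was left out. With 4OHT the call ended when the experiment 1 array with IL-7 (-0.27) or the experiment 2 array without it (-0.22) was left out. It was also lost without 4OHT when the arrays were centred on their medians (limma adjusted p = 0.0811). With 4OHT it was lost with only the compared arrays (limma adjusted p = 0.0574). For both treatments against neither, the Smc4 call was lost with centred arrays and with only the compared arrays (limma adjusted p = 0.0862 and 0.0939). It also ended without the experiment 1 array with IL-7 alone (-0.21) or the experiment 2 array with both treatments (-0.19). The other 41 genes kept their call in these 3 comparisons at 24 h when any 1 array was left out.

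All 7 cyclins and kinases of mitotic entry fell. With both treatments the largest fall was that of Pbk, a mitotic protein kinase also called TOPK, and the smallest that of Ccnb2, cyclin B2. In experiments 1 and 2 in turn, Pbk read 10.21 and 9.66 at time 0, 10.16 and 9.35 at 6 h with IL-7 and 4OHT, 10.11 and 9.22 at 6 h without IL-7, 10.44 and 10.18 at 24 h with IL-7 alone, 10.34 and 10.28 at 24 h with IL-7 and 4OHT, 8.10 and 7.89 at 24 h without IL-7 or 4OHT, and 7.96 and 7.76 at 24 h without IL-7 but with 4OHT. The pairs without IL-7 at 24 h were the lowest, and did not overlap with any other pair, while the 2 experiments differed by more in Pbk at time 0 and 6 h than at 24 h. Both treatments against neither differed by -2.45 ± 0.29 (SE; limma adjusted p = 2.92e-05), a 5.45-fold fall. Ccnb2 read 12.60 and 12.37 at time 0, 12.51 and 12.22 and then 12.75 and 12.46 at 6 h with and without IL-7, 12.63 and 12.58 and then 12.76 and 12.68 at 24 h with IL-7 (4OHT absent, then present), and 11.28 and 10.89 and then 11.57 and 11.31 at 24 h without IL-7. Its fall was -1.16 ± 0.15 (SE; limma adjusted p = 5.31e-05). Cdk1 itself, the kinase that drives entry, read 12.09 and 11.95 with IL-7 and 10.38 and 10.08 without it at 24 h in the absence of 4OHT, and differed by -1.79 ± 0.16 without and -1.93 ± 0.16 with 4OHT. Ccna2 (cyclin A2), Aurka (Aurora A, which matures the centrosomes), Plk1 (the Polo-like kinase) and Nek2 (a kinase that separates the centrosomes) differed by -1.56, -1.66, -1.77 and -1.80 under 4OHT.

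In the spindle checkpoint and anaphase group all 6 genes fell. With both treatments against neither, Ttk, the checkpoint kinase MPS1, fell most and Cdc20, the activator of the anaphase-promoting complex (APC/C), least. Without 4OHT the smallest fall was that of Mad2l1 (-1.40). Ttk read 9.63 and 9.37 at time 0, 9.68 and 9.17 and then 9.86 and 9.35 at 6 h with and without IL-7, 10.04 and 9.83 and then 9.94 and 9.93 at 24 h with IL-7 (4OHT absent, then present), and 7.72 and 7.50 and then 8.01 and 7.35 at 24 h without IL-7. Both groups without IL-7 at 24 h lay 1.16 or more below every other array, and the experiments stood furthest apart in the group with both treatments. Its fall with both treatments was -2.26 ± 0.22 (SE; limma adjusted p = 7.50e-06). Cdc20 read 11.02 and 10.77 at time 0, 11.09 and 10.77 and then 11.18 and 10.81 at 6 h with and without IL-7, 11.25 and 10.98 and then 11.31 and 11.23 at 24 h with IL-7 (4OHT absent, then present), and 9.59 and 9.42 and then 9.80 and 9.52 at 24 h without IL-7. That fall was -1.46 ± 0.15 (SE; limma adjusted p = 1.25e-05). Bub1 and Bub1b (BUBR1), which hold the checkpoint at the kinetochore, differed by -1.99 and -1.89 under 4OHT, Espl1 (separase, which cuts cohesin) by -1.84 and Mad2l1 (MAD2, which binds CDC20) by -1.67.

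The chromosomal passenger complex corrects faulty attachments and later guides cytokinesis. Of its 3 subunits among the 42, with both treatments against neither, Birc5 (survivin) fell most and Aurkb (Aurora B, the kinase) least. Without 4OHT Incenp had the smallest fall, -1.54. Cdca8 (borealin), the remaining subunit, was counted with the other checkpoint genes and differed by -2.02 ± 0.19 with both treatments. Birc5 read 9.91 and 9.45 at time 0, 9.73 and 9.31 and then 9.85 and 9.42 at 6 h with and without IL-7, 9.97 and 9.87 and then 9.97 and 10.02 at 24 h with IL-7 (4OHT absent, then present), and 8.00 and 7.89 and then 8.13 and 7.99 at 24 h without IL-7. Aurkb read 12.08 and 11.76 at time 0, 12.07 and 11.64 and then 12.10 and 11.71 at 6 h with and without IL-7, 12.26 and 12.24 and then 12.33 and 12.31 at 24 h with IL-7 (4OHT absent, then present), and 10.70 and 10.43 and then 11.07 and 10.98 at 24 h without IL-7. In both genes the arrays without IL-7 at 24 h were the lowest and overlapped with no other group. The falls with both treatments were -1.86 ± 0.17 for Birc5 (SE; limma adjusted p = 3.89e-06) and -1.22 ± 0.16 for Aurkb (SE; limma adjusted p = 5.89e-05). Incenp, the scaffold, differed by -1.70 ± 0.14 under 4OHT.

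**Figure D2:**
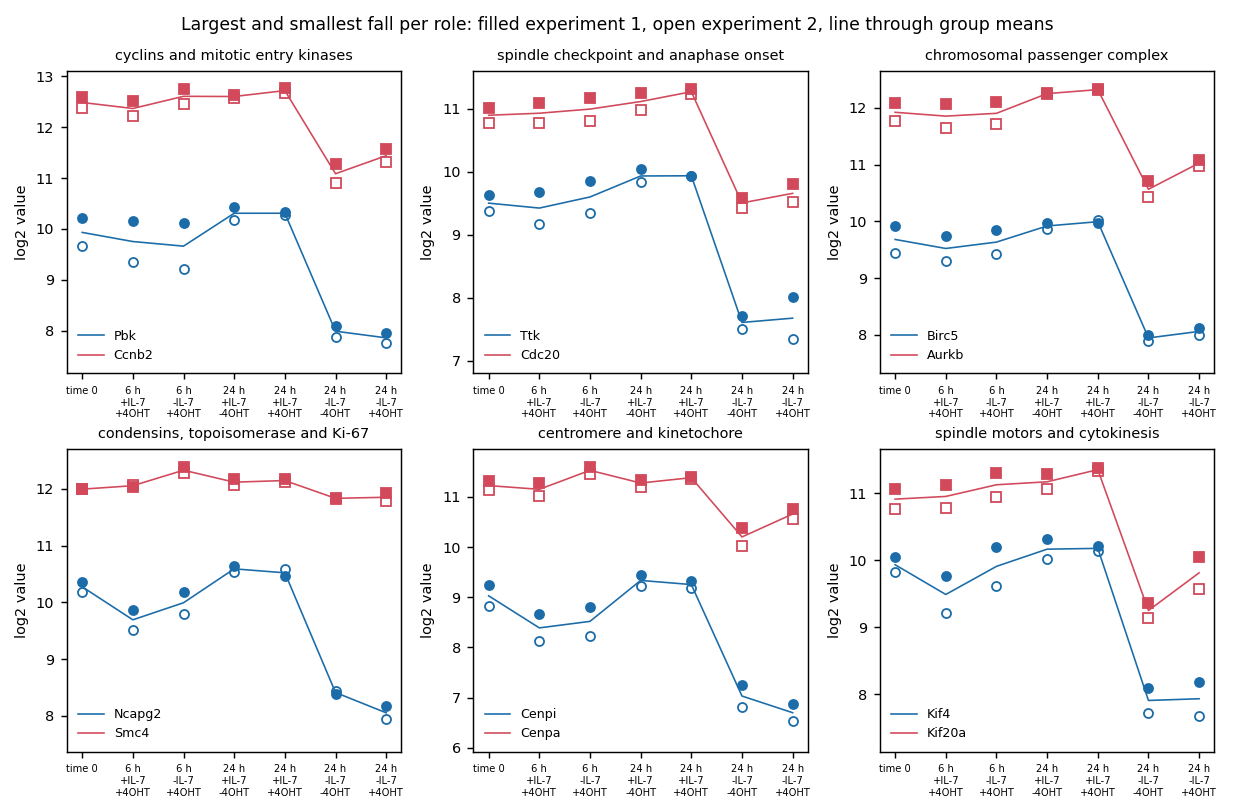
Log2 values (vertical axis) in the 7 groups (horizontal axis) of the genes with the largest and the smallest fall of each role. Falls are ranked for both treatments against neither at 24 h. Filled symbols are experiment 1, open symbols are experiment 2, and a line runs through the group means. Ncapg2 and Cenpi drop at 24 h without IL-7 by over 2 on the log2 scale, while Smc4 stays between 11.78 and 12.38 on all arrays.

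All 8 genes of the condensin group fell, by very unequal amounts. Ncapg2, a regulatory subunit of condensin II, had the largest fall of the group with both treatments and under 4OHT, and Ncapg without 4OHT. In all 3 comparisons Smc4 had the smallest fall of the 42. Ncapg2 read 10.36 and 10.19 at time 0, 9.87 and 9.52 and then 10.18 and 9.80 at 6 h with and without IL-7, 10.65 and 10.53 and then 10.46 and 10.59 at 24 h with IL-7 (4OHT absent, then present), and 8.39 and 8.44 and then 8.17 and 7.94 at 24 h without IL-7. With both treatments the difference was -2.54 ± 0.14 (SE; limma adjusted p = 9.96e-08), a 5.80-fold fall, and the arrays of 24 h without IL-7 overlapped with no other group. In experiments 1 and 2 in turn, Smc4 read 12.00 and 11.99 at time 0, 12.04 and 12.07 at 6 h with IL-7 and 4OHT, 12.38 and 12.28 at 6 h without IL-7, 12.17 and 12.06 at 24 h with IL-7 alone, 12.17 and 12.12 at 24 h with IL-7 and 4OHT, 11.85 and 11.82 at 24 h without IL-7 or 4OHT, and 11.93 and 11.78 at 24 h without IL-7 but with 4OHT. The groups without IL-7 at 24 h were again the lowest, but by little, and the pair at 6 h without IL-7 was the highest. SMC2 and SMC4 form the core of every condensin together, and Smc2 read 11.05 and 11.04 with and 9.21 and 8.92 without IL-7 at 24 h under 4OHT. The difference was -1.98 ± 0.14 for Smc2 and -0.29 ± 0.07 for Smc4 in that comparison, and the difference between the genes was not tested. The condensin I subunits Ncapg, Ncaph and Ncapd2 differed by -2.45, -1.78 and -1.58, Top2a (topoisomerase II alpha) by -1.84, and Mki67 (Ki-67, which coats mitotic chromosomes) by -1.45.

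Among the 9 centromere and kinetochore genes, with both treatments, Cenpi fell most and Cenpa, the histone H3 variant that marks the centromere, least. Cenpi read 9.24 and 8.82 at time 0, 8.66 and 8.12 and then 8.81 and 8.23 at 6 h with and without IL-7, 9.45 and 9.23 and then 9.33 and 9.18 at 24 h with IL-7 (4OHT absent, then present), and 7.25 and 6.81 and then 6.87 and 6.53 at 24 h without IL-7. It was the only one of the 42 genes to go under the median of all values, on the arrays without IL-7 at 24 h. Its fall with both treatments was -2.64 ± 0.23 (SE; limma adjusted p = 2.67e-06). With the low arrays in the lower part of all values and no detection call at hand, that difference may understate the fall. Cenpa read 11.32 and 11.13 at time 0, 11.28 and 11.02 and then 11.60 and 11.46 at 6 h with and without IL-7, 11.35 and 11.21 and then 11.41 and 11.36 at 24 h with IL-7 (4OHT absent, then present), and 10.38 and 10.03 and then 10.75 and 10.57 at 24 h without IL-7. Its groups did not overlap between 24 h with and without IL-7, and the fall was -0.62 ± 0.13 (SE; limma adjusted p = 0.00197), or 1.53-fold. The NDC80 complex binds microtubules, and 3 of its subunits are among the 42: under 4OHT Nuf2 differed by -2.30, Spc25 by -1.84 and Ndc80 by -1.24. Spc24, the remaining subunit, was counted with the other centromere genes and fell by 2.00 in that comparison. Cenpk, of the same inner complex as Cenpi, differed by -2.14, Cenpe (a kinetochore motor) by -1.71, Cenpf by -1.56 and Cenpn, which reads CENP-A chromatin, by -1.04.

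All 9 spindle motor and cytokinesis genes fell. With both treatments against neither, Kif4, the chromosome-bound kinesin KIF4A, fell most and Kif20a, a kinesin of the central spindle, least. Under 4OHT the smallest fall was that of Kif23, and without 4OHT Kif2c fell most and Anln least (-1.69). Kif4 read 10.05 and 9.82 at time 0, 9.77 and 9.21 and then 10.21 and 9.61 at 6 h with and without IL-7, 10.31 and 10.02 and then 10.21 and 10.14 at 24 h with IL-7 (4OHT absent, then present), and 8.10 and 7.72 and then 8.19 and 7.68 at 24 h without IL-7. Kif20a read 11.06 and 10.76 at time 0, 11.13 and 10.78 and then 11.30 and 10.95 at 6 h with and without IL-7, 11.29 and 11.06 and then 11.38 and 11.33 at 24 h with IL-7 (4OHT absent, then present), and 9.36 and 9.14 and then 10.05 and 9.57 at 24 h without IL-7. Both had their lowest arrays at 24 h without IL-7. The falls with both treatments were -2.23 ± 0.23 for Kif4 (SE; limma adjusted p = 1.09e-05) and -1.36 ± 0.18 for Kif20a (SE; limma adjusted p = 6.34e-05). Under 4OHT the others ran from -2.11 for Kif2c, a microtubule depolymerase, through Tpx2 (-1.89, a spindle assembly factor), Anln (-1.75, anillin of the contractile ring), Kif11 (-1.73, the bipolar kinesin Eg5), Prc1 (-1.62, which bundles the midzone) and Ect2 (-1.57, the RhoA exchange factor) to Kif23 (-1.44, a centralspindlin subunit).

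**Figure D3:**
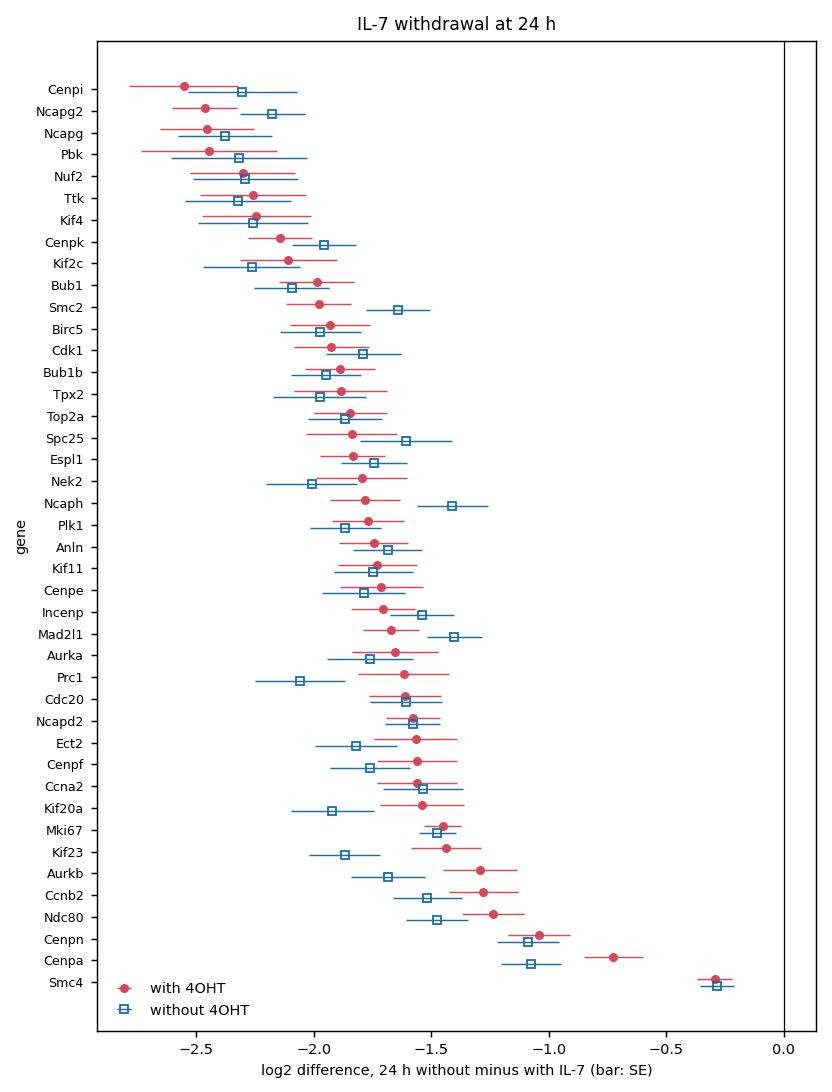
Log2 difference between 24 h without and with IL-7 (horizontal axis, bars are SE) for each of the 42 genes (vertical axis), with 4OHT as filled circles and without 4OHT as open squares. All points lie left of 0, most between -1 and -2.5, and Smc4 lies nearest to 0.

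The 26 genes with a CHR in a promoter window had a median difference of -1.74 in the withdrawal under 4OHT (-2.47 to -0.72), the 9 without one -1.93 (-2.55 to -1.67), and the 7 without a window -1.56. The 9 were Birc5, Bub1, Cenpe, Cenpi, Cenpk, Mad2l1, Ncaph, Nek2 and Nuf2. The ranges overlap, and nothing follows from the letters about the factors.

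Whether Ikaros activity changed the response to withdrawal was asked with the interaction of the treatments at 24 h. No gene of the 42 passed by limma, with 0 at an unadjusted p under 0.05, and 0.687% of all genes passed in either direction. With the replicate block 0 passed too, with 8 at an unadjusted p under 0.05. The median interaction was 0.02 and the range ran from -0.37 (Ncaph) to 0.44 (Prc1), with a median SE of 0.22. The count does not show that the response was the same with and without 4OHT. In experiment 1 the median was 0.15 and in experiment 2 it was -0.10, and centring the arrays turned the median to -0.05, so no direction is given.

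At 6 h no gene of the 42 was called lower without IL-7. Of the 42, 2 rose, Ndc80 and Smc4, a smaller share than the 6.78% of all genes called higher. Positive differences numbered 40, and the median over the 42 was 0.22 (all genes 0.03). That median moved with single arrays: it was 0.04 with 23 positive without the experiment 1 array lacking IL-7, 0.06 with 25 positive without the experiment 2 array with IL-7, 0.41 without the experiment 2 array lacking IL-7 and 0.38 without the experiment 1 array with IL-7. In the fit with the replicate block 17 of 42 rose, against 11.2% of all genes. The medians were 0.26 and 0.19 in experiments 1 and 2. No difference reached 2-fold. A rise here is over the 6 h arrays with IL-7, where the 42 genes had a median of -0.21 against time 0. Of the 17 called with the block, Bub1, Ncaph, Nuf2, Kif4 and Anln had lower means at 6 h without IL-7 than at time 0. The others had higher means there than at time 0. These differences from time 0 were not tested.

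Ndc80, the microtubule-binding subunit of its complex, read 9.73 and 9.44 with and 10.38 and 10.05 without IL-7 at 6 h. Both arrays without IL-7 were above both with it, and the difference was 0.63 ± 0.13 (SE; limma adjusted p = 0.00658, 0.000500 to 0.0713 over the alternatives). Its call ended without the experiment 1 array lacking IL-7 (0.46) and without the experiment 2 array with IL-7 (0.48). Smc4 read 12.04 and 12.07 with and 12.38 and 12.28 without IL-7, again with no overlap, a difference of 0.27 ± 0.07 (SE; limma adjusted p = 0.0253, 0.00509 to 0.181 over the alternatives). That call ended without either array with IL-7 (0.26 and 0.29) or without the experiment 1 array lacking it (0.22). It was also lost with centred arrays and with only the compared arrays (limma adjusted p = 0.158 and 0.0931).

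The 17 genes called with the replicate block were spread unevenly over the roles: 6 of 9 centromere and kinetochore genes, 6 of 9 spindle and cytokinesis genes, 3 of 8 of the condensin group, 1 of 7 entry genes (Aurka), 1 of 6 checkpoint genes (Bub1) and 0 of 3 passenger genes. The centromere genes Cenpe and Cenpf differed by 0.50 and 0.43, the midzone gene Prc1 by 0.45 and Kif4 by 0.42. All stand beside the 11.2% of all genes called higher. The role medians were 0.38 for the centromere group, 0.34 for the spindle group, 0.22 for the condensin group, 0.13 for the entry group, 0.14 for the checkpoint group and 0.08 for the passenger complex. The difference between roles was not tested.

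Withdrawal under 4OHT differed between 24 h and 6 h in all 42 genes. The difference of the 2 differences, a comparison added after seeing the data, was negative and passed in 42 of 42, against 3.65% of all genes called lower, with a median of -1.99. It was -2.77 ± 0.20 for Ncapg2 (SE; limma adjusted p = 2.68e-05), -1.87 ± 0.19 for Ndc80 (limma adjusted p = 0.000135) and -0.57 ± 0.10 for Smc4 (limma adjusted p = 0.00626). Seen along the time course without IL-7 and with 4OHT, 24 h against 6 h, all 42 fell, against 6.81% of all genes, with a median difference of -1.55, from -1.98 (Kif4) to -0.48 (Smc4). By role the largest falls were -1.80 ± 0.29 for Pbk (limma adjusted p = 0.00135), -1.92 ± 0.22 for Ttk (0.000131), -1.57 ± 0.17 for Birc5 (8.08e-05), -1.94 ± 0.14 for Ncapg2 (6.32e-06), -1.82 ± 0.23 for Cenpi (0.000236) and -1.98 ± 0.23 for Kif4 (0.000141). Smc4 read 12.38 and 12.28 at 6 h and 11.93 and 11.78 at 24 h there.

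**Figure D4:**
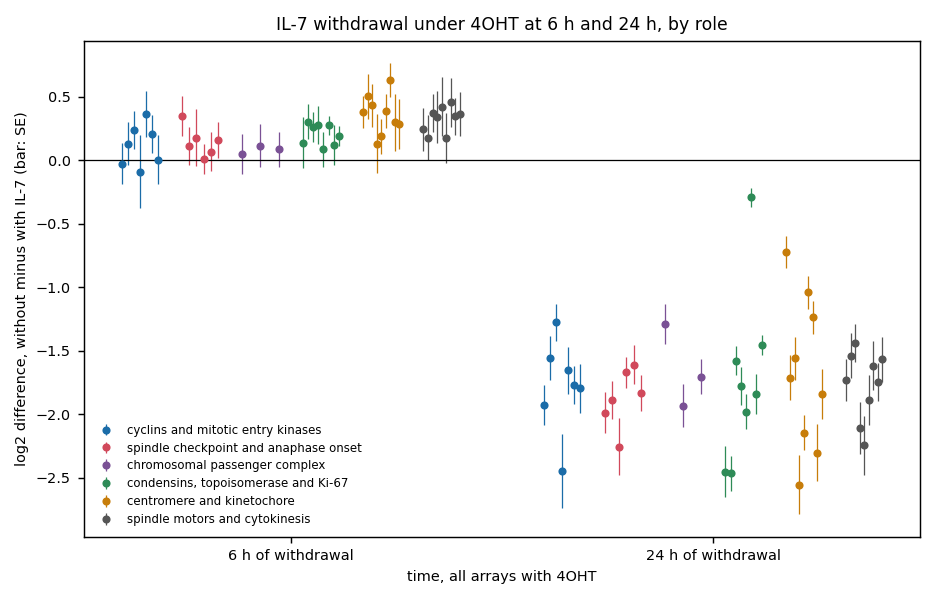
Log2 difference between cells without and with IL-7, all with 4OHT (vertical axis, bars are SE), at 6 h and at 24 h (horizontal axis), 1 point per gene, coloured by role. At 6 h 40 of 42 points lie above 0 with Ndc80 highest at 0.63, and at 24 h all lie below 0, with Smc4 nearest to it at -0.29.

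At 6 h with IL-7 and 4OHT, set against time 0, 1 of the 42 genes fell, Ncapg2. This is a smaller share than the 4.85% of all genes called lower. The 42 genes had a median of -0.21 with 3 positive. That median was -0.03 with 15 positive without the experiment 2 array at 6 h, -0.09 with 12 positive without the experiment 1 array of time 0, and -0.38 without the experiment 1 array at 6 h. Under the replicate block 11 fell, against 8.21% of all genes: Ncapg2, Cenpi, Anln, Nuf2, Kif4, Bub1, Ndc80, Espl1, Ect2, Smc2 and Ncaph. Ncapg2 read 10.36 and 10.19 at time 0 and 9.87 and 9.52 at 6 h, with no overlap, a difference of -0.58 ± 0.14 (SE; limma adjusted p = 0.020, 0.00229 to 0.174 over the alternatives). Its call ended with all probe sets fitted and with only the compared arrays (limma adjusted p = 0.0584 and 0.0747). It also ended without the experiment 1 array of time 0 (-0.49) and without the experiment 2 array at 6 h (-0.41). Those same 6 h arrays are the control for withdrawal at 6 h, so the 2 comparisons are not independent. Ndc80 at time 0, 9.98 and 9.91, lay between its pairs at 6 h with and without IL-7.

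With IL-7 and 4OHT, 24 h was set against 6 h. All 42 differences were positive, with a median of 0.47 (0.28 and 0.64 in experiments 1 and 2, and 0.28 without the experiment 2 array at 6 h). Of the 42, 5 rose, against 1.63% of all genes called higher: Ncapg2 by 0.83 ± 0.14 (SE; limma adjusted p = 0.00641, 0.000470 to 0.0646 over the alternatives), Cenpk by 0.76 ± 0.14 (limma adjusted p = 0.00846, 0.000642 to 0.0821), Ndc80 by 0.66 ± 0.13 (limma adjusted p = 0.0158), Espl1 by 0.61 ± 0.14 (limma adjusted p = 0.0334, 0.000872 to 0.268) and Mki67 by 0.32 ± 0.08 (limma adjusted p = 0.0453). Ncapg2 read 9.87 and 9.52 at 6 h and 10.46 and 10.59 at 24 h. Cenpk read 9.08 and 8.79 at 6 h and 9.68 and 9.73 at 24 h. Espl1 read 9.36 and 8.98 at 6 h and 9.83 and 9.73 at 24 h. In all 5 called genes both arrays at 24 h lay above both at 6 h. With the replicate block 38 rose, against 4.57% of all genes. None of the 5 calls was made without the experiment 2 array at 6 h, where the values were 0.66 for Ncapg2, 0.62 for Cenpk, 0.52 for Ndc80, 0.42 for Espl1 and 0.32 for Mki67. The calls of Cenpk, Ndc80, Espl1 and Mki67 ended without the experiment 1 array at 24 h (Cenpk 0.79, Espl1 0.56). Those of all 5 ended without the experiment 2 array at 24 h (Ncapg2 0.76, Mki67 0.25), and that of Mki67 without the experiment 1 array at 6 h. Espl1 and Mki67 also lost their calls with centred arrays and with only the compared arrays. With all probe sets fitted Ndc80, Espl1 and Mki67 lost theirs.

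Cells with IL-7 and no 4OHT at 24 h, set against time 0, also had 42 positive differences (41 with the arrays centred on their medians), with a median of 0.22, but 0 passed by limma (4 at an unadjusted p under 0.05; 3.09% of all genes passed in either direction). The median was 0.11 with 39 positive without the experiment 2 array of time 0, 0.14 with 40 positive without the experiment 1 array at 24 h, and 0.34 without the experiment 1 array of time 0. With the replicate block 6 rose, against 3.16% of all genes: Mad2l1, Cdk1, Nuf2, Ncapg, Cenpk and Ttk.

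At 24 h with IL-7 present, none of the 42 genes passed for 4OHT by limma (0 at an unadjusted p under 0.05), against 9.16% of all genes in either direction, and the median difference was 0.03. Positive differences numbered 29 of 42, but 22 after repeated quantile normalization 39 with the arrays centred on their medians and 13 without the experiment 2 array lacking 4OHT, so no direction is given for the group. In the fit with the replicate block 1 gene of the 42 fell, a smaller share than the 7.58% of all genes called lower. It was Anln, which read 11.36 and 11.27 without and 11.04 and 11.04 with 4OHT, a difference of -0.28 (limma adjusted p = 0.0466 with the replicate block, 0.0466 to 0.668 over the alternatives). With IL-7 and 4OHT the 2 arrays of Anln lay below those without 4OHT and below both time 0 arrays, 11.31 and 11.12.

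Without IL-7, 4OHT was followed by differences of both signs. Cenpa rose, the only gene of the 42 to pass, a smaller share than the 7.10% of all genes called higher. Of the 42, 13 had an unadjusted p under 0.05. Cenpa read 10.38 and 10.03 without and 10.75 and 10.57 with 4OHT, with no overlap, a difference of 0.46 ± 0.13 (SE; limma adjusted p = 0.0286, 0.000438 to 0.283 over the alternatives). The call ended without the experiment 1 array with 4OHT (0.36) and without the experiment 2 array lacking 4OHT (0.28). It was also lost with centred arrays and with all probe sets fitted (limma adjusted p = 0.0525 and 0.0705).

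When the replicate block was fitted, 9 genes rose, against 11.0% of all genes, and 6 fell, against 11.5%. The 9 were Kif20a (0.56), Prc1 (0.46), Aurkb (0.46), Cenpa, Nek2 (0.42), Cenpf (0.38), Kif23 (0.36), Ndc80 (0.36) and Ccnb2 (0.35). The 6 were Ncapg2 (-0.36), Smc2 (-0.34), Anln (-0.34), Ncaph (-0.33), Cenpi (-0.33) and Mad2l1 (-0.33). The count of lower genes is near the share of all genes. By role, the calls were 2 higher of the entry group, 1 lower of the checkpoint group, 1 higher of the passenger complex, 3 lower of the condensin group, 3 higher and 1 lower of the centromere group, and 3 higher and 1 lower of the spindle group. The difference between roles was not tested. Kif20a read 9.36 and 9.14 without and 10.05 and 9.57 with 4OHT, Smc2 read 9.48 and 9.34 and 9.21 and 8.92, and in both genes the groups did not overlap. Over all 42 genes the median was 0.06, with 0.13 in experiment 1 and -0.01 in experiment 2, and 28 positive. It was -0.08 with 14 positive without the experiment 1 array with 4OHT, -0.03 without the experiment 2 array lacking it, 0.18 without the experiment 1 array lacking it and 0.24 without the experiment 2 array with it, so no direction is given for the group.

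**Figure D5:**
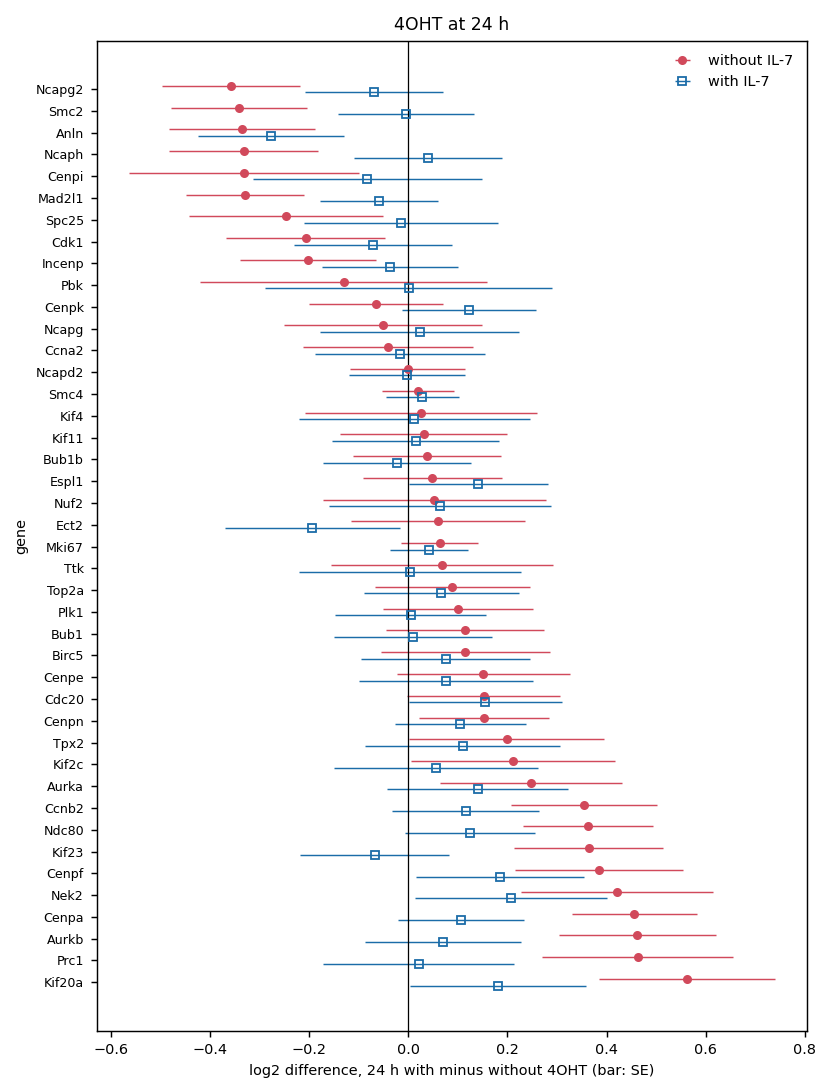
Log2 difference between 24 h with and without 4OHT (horizontal axis, bars are SE) for each of the 42 genes (vertical axis), without IL-7 as filled circles and with IL-7 as open squares. Without IL-7 the points run from -0.36 (Ncapg2) to 0.56 (Kif20a), and with IL-7 from -0.28 (Anln) to 0.21 (Nek2).

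Other genes of the same processes were counted in the same fit, for both treatments against neither. There 15.4% of all genes were called lower and 18.1% higher. Of 13 other mitotic kinases and partners 12 fell, led by Melk (-2.26), Cks1b (-2.18, a CDK subunit) and Mastl (-2.13, the Greatwall kinase), and Cdc25b, a phosphatase that activates CDK1, rose by 0.46. Cdc25b fell by 0.81 on withdrawal without 4OHT, and rose with 4OHT by 0.70 in the presence and by 1.27 in the absence of IL-7. Of 21 other centromere and kinetochore genes 20 fell, led by Cenph (-2.46), Ska3 (-2.20) and Oip5 (-2.11). Of 26 other checkpoint, APC/C and cohesion genes 19 fell, with a median of -0.48, led by Kntc1 (-2.53), Cdca5 (-2.41, sororin) and Sgo1 (-2.02, shugoshin). Of 19 other spindle and cytokinesis genes 18 fell, led by Kif15 (-2.10), Cep55 (-1.94) and Stmn1 (-1.89), and of 7 other condensin and chromosome genes 6 fell, led by Nusap1 (-1.62), Kif22 (-1.47) and Cbx5 (-1.37). The seventh, Top2b, a topoisomerase II that resting cells also make, rose by 0.45 ± 0.10. Ccnb1, Hjurp and Kifc1 had no probe set of their own and were not analysed here.

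In the same comparison 8 of 11 genes of G2/M transcription control fell, against 15.4% of all genes called lower. Among them were Mybl2 (B-MYB, -2.42 ± 0.15, limma adjusted p = 2.11e-07), Foxm1 (-1.65 ± 0.14, limma adjusted p = 2.27e-06) and Rbl1 (p107, -1.46 ± 0.13). Rbl2, which encodes p130, the pocket protein of the repressing complex in resting cells, rose by 0.55 ± 0.10 (SE; limma adjusted p = 0.000702), and Lin52 and Lin37 rose by 0.35 and 0.27. Of all genes 18.1% were called higher in that comparison.

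The replication genes, which peak earlier in the cycle, served as the nearest comparison. After 24 h without IL-7 all 11 helicase genes (MCM, CDC45 and GINS) and all 23 polymerase, clamp and licensing genes fell as well. Their medians were -1.37 and -1.08 without 4OHT, and -1.86 and -1.36 with it, beside -1.79 and -1.76 for the 42 mitotic genes. Of all genes 8.78% were called lower there without 4OHT and 11.5% with it. At 6 h of withdrawal the helicase median was -0.24, with Mcm2 and Mcm6 called lower and none higher. Of all genes 7.48% were called lower in that comparison. The polymerase median was -0.05, beside 0.22 for the mitotic genes. For 4OHT without IL-7 at 24 h, 5 of 11 helicase and 9 of 23 polymerase genes fell and none rose. In that comparison 8.17% of all genes were called lower. The list medians were -0.33 and -0.25, beside 0.06 for the mitotic genes. The differences between the lists were not tested.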

How the data were processed

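RNA of 14 cultures was measured on Affymetrix arrays, 1 array each. The deposited values are log2 expression values that the authors made with Affymetrix Expression Console 1.1 and RMA, per the submitters' processing notes. Any further setting, and the build, is not given in the sources used here. Of 35556 probe sets, 21789 had 1 gene symbol, 1621 several and 12146 were not listed in the platform table; only those with 1 symbol were named, and the brightest stood for its gene (19938 genes).

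Differences were fitted with limma 3.58.1 (R 4.3.3), lmFit and eBayes over all 14 arrays with 7 groups and no block (residual df 7, prior df 4.83). P-values were adjusted by Benjamini-Hochberg over 19938 genes and called under 0.05. They measure only the spread between 2 arrays a group. Many genes whose arrays are said not to overlap were chosen by their calls, so the lack of overlap is no separate support. Over all genes, separation was counted only for the 24 h arrays without IL-7 against the other arrays (2.94%). The fit was tested on simulated data with independent noise on each array. Those data held no shift between the experiments, so that test cannot show how the fit behaves under one.

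The labels call the replicate numbers independent experiments. As a check of pairing, deviations of same-numbered arrays correlated at 0.124 to 0.631 (median 0.392) over 21 pairs of groups, so the replicate block was fitted as an alternative. Other alternatives were repeated quantile normalization, arrays centred on their medians, dim genes left out and the mean over the probe sets of a gene. Further ones were all probe sets fitted, a trended robust prior, only the compared arrays, and each array left out. The comparison of withdrawal at 24 h with 6 h was added after seeing the data.

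The members and gene lists were chosen with earlier results of these data known. Named were, per comparison and role, the called member with the largest difference; every array is given for the largest and smallest fall per role with both treatments, and up to 3 genes per other list. Anln, Ndc80, Smc2, Cdk1 and further genes with array values, and the exceptions within lists, were chosen after their values were seen.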

Additional observations from a re-analysis of the deposited data

Results flagged for a closer look

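The response to IL-7 withdrawal under 4OHT differed between 24 h and 6 h in 42 of 42 genes, by limma's test of the difference itself, a comparison added after seeing the data (limma adjusted p under 0.05). The largest by role were -2.36 ± 0.41 for Pbk (SE; limma adjusted p = 0.00444), -2.43 ± 0.32 for Ttk (0.000565), -2.05 ± 0.24 for Birc5 (0.000319), -2.77 ± 0.20 for Ncapg2 (2.68e-05), -2.68 ± 0.33 for Cenpi (0.000383) and -2.66 ± 0.33 for Kif4 (0.000406). Ndc80 and Smc4, called higher without IL-7 at 6 h and lower at 24 h, differed by -1.87 ± 0.19 and -0.57 ± 0.10. All 42 differences were negative in both experiments. No group at 6 h lacked 4OHT, so the same difference without 4OHT was not measured.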

How the results depend on the processing

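All comparisons with 42 calls kept 41 or 42 under every alternative, Smc4 being the gene lost, and the interaction kept 0. Other counts moved. With the replicate block they were 11 for 6 h against time 0 (1 without it), 17 for withdrawal at 6 h (2), 6 for 24 h with IL-7 against time 0 (0), 1 for 4OHT with IL-7 (0), 15 for 4OHT without IL-7 (1) and 38 for 24 h against 6 h with IL-7 (5). Repeated quantile normalization gave 2 for 6 h against time 0, 5 for withdrawal at 6 h, 4 for 4OHT without IL-7 and 10 for 24 h against 6 h with IL-7, and centred arrays gave 1 for withdrawal at 6 h, 0 for 4OHT without IL-7 and 3 for 24 h against 6 h with IL-7. For 6 h against time 0 and for 4OHT without IL-7 the counts were 2 and 2 with dim genes left out, 0 and 0 with all probe sets, 2 and 2 with the trended robust prior, and 0 and 4 with only the compared arrays. All probe sets gave 2 for 24 h against 6 h with IL-7, and only the compared arrays gave 1 for withdrawal at 6 h. Leaving out each array gave 0 to 1 for 6 h against time 0, 0 to 4 for withdrawal at 6 h, 0 to 4 for 4OHT without IL-7 and 0 to 9 for 24 h against 6 h with IL-7. Counts over all 19938 genes, in either direction, moved as well. The fits in turn are main, replicate block, repeated quantile normalization and centred arrays. For 6 h against time 0 these counts were 1748, 2999, 2135 and 1421. For withdrawal at 6 h they were 2844, 4243, 3324 and 2155, and for 4OHT without IL-7 3045, 4470, 3536 and 2619. For 24 h against 6 h with IL-7 they were 729, 1819, 979 and 502. The cause of these moves was not tested, save that leaving out an array leaves fewer samples. No called gene reversed in 6384 alternative values of single genes. Among these values 238 changed sign without a call in either fit. With 2 arrays a group, the smallest difference called in the fit without the block was -0.27 (Smc4, both treatments against neither). That call was lost in some of the alternatives.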
